A study of Mus musculus with 14 samples.

Results

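The genes described here are nuclear genes of the last 3 complexes of mitochondrial oxidative phosphorylation. They were taken as the protein-coding genes in GENCODE vM21 whose symbol begins with Uqcr, Cox4, Cox5, Cox6, Cox7, Cox8 or Atp5. There were 44 such gene IDs of 54446 in the count table, 8 for complex III, 18 for complex IV and 18 for complex V. The rule leaves out Cyc1, cytochrome c1 of complex III, which is given below with other genes of the pathway. RNA came from heart nuclei of ICR mice, an outbred strain, enriched for nuclei that carry PCM1, a protein of cardiomyocyte nuclei. Mice had been injected intraperitoneally on postnatal day 7 with adeno-associated virus AAV9, and hearts were taken 5 days later, on postnatal day 12. The YAP5SA_MEF2A group (2 libraries) got 2 viruses, the YAP5SA group (3 libraries) got a virus for YAP5SA, a form of the growth coactivator YAP that Hippo signalling cannot switch off, the MEF2A group (4 libraries) got a virus for human MEF2A, a muscle transcription factor, and the Control group (5 libraries) got no virus. Each virus used a cardiac troponin T promoter, which is active in cardiomyocytes, at 1E11 genome copies. Because Controls got no virus, virus and transgene cannot be told apart in any difference from Control. YAP5SA_MEF2A hearts got 1E11 genome copies of each virus, so against a single-virus group the added transgene and the added virus cannot be told apart. Nothing in the labels ties a library to an animal of its own, so all p-values rest on the spread among libraries, part of which may be technical.

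Complex III takes electrons from ubiquinol to cytochrome c, complex IV passes them from cytochrome c to oxygen, and both pump protons across the inner mitochondrial membrane. Complex V, the ATP synthase, lets the protons flow back and makes ATP. Most subunits of each complex are encoded in the nucleus and the rest in mitochondria. The heart, which beats on oxidative ATP, is rich in all of these complexes. Several complex IV subunits exist as a heart and skeletal muscle isoform and a ubiquitous one, and the muscle forms gain on the ubiquitous ones as the mouse heart matures after birth.

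Atp5h and Atp5b were among the genes lower with YAP5SA, though the Atp5b call against Control held in only 4 of 14 fits without 1 library. Cox7a1 and Cox7a2 form the muscle and ubiquitous pair with a shifted ratio. The sequences upstream of these 4 genes are shown as examples. They are RefSeq sequence of GRCm38.p6, read 5′ to 3′ on the gene's strand, at chr11:115419963-115420169 (minus strand), chr10:128083057-128083272 (plus), chr7:30183921-30184143 (plus) and chr9:79759879-79760103 (minus). Each begins 250 bases upstream of the RefSeq start and stops before the first base that RefSeq or GENCODE places in the transcript. Capitals mark letters of 7 searched motifs, on either strand, and no 2 marked stretches overlap.
Atp5h: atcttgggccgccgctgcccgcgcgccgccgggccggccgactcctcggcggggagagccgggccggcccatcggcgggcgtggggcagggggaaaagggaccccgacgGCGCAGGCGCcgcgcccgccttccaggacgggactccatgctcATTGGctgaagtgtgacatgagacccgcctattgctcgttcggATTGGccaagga
Atp5b: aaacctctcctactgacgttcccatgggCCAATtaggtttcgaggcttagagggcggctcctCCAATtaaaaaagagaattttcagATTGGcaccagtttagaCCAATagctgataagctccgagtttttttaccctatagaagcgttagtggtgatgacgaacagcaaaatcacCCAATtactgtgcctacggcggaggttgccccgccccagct
Cox7a1: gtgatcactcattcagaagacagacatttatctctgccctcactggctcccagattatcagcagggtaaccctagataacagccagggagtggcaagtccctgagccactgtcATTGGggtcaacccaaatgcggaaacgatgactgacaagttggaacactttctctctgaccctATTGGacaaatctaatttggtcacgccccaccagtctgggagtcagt
Cox7a2: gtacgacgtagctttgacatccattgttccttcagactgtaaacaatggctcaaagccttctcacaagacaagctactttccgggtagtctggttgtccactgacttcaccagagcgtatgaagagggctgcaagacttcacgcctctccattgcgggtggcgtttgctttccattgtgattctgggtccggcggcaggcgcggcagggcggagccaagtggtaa
In Atp5h the capitals mark an NRF1 motif (GCGCA, any base, GCGC) at bases -141 to -132 from the RefSeq start and CCAAT boxes, here read as ATTGG, at -98 to -94 and -55 to -51. An ETS motif (CCGGAAG, on the other strand) lay at -38 to -32, past the printed bases. Atp5b held 5 CCAAT boxes, Cox7a1 held 2, and the Cox7a2 window held none of the 7 motifs. Of the 44 genes, 30 had a RefSeq window of 250 upstream bases near their GENCODE start. Uqcrc2, Atp5a1 and Atp5s, also lower with YAP5SA, had no such window. CCAAT was in 17 of these 30 (56.7%, against 34.5% of 27025 windows of all genes), the ETS letters in 7 (23.3% against 7.05%), the NRF1 letters in 4 (13.3% against 3.86%) and TCAAGGTCA, of the oestrogen-related receptors, in 1 (3.33% against 0.366%). The TEAD letters GGAATG, of the factors that YAP binds, were in 2 (6.67% against 12.6%). The MEF2 letters (CTA, any 4 bases, TAG) were in 1 (3.33% against 3.23%) and the YY1 letters AAGATGGCG in 0 (0.0% against 0.607%). A match is a string of letters, not a bound site.

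Libraries held 16171068 to 24027622 counts, in batch 1 (2 libraries of each group) and batch 2 (1 YAP5SA, 2 MEF2A and 3 Control libraries). Levels are TMM-scaled CPM, read counts relative to library size. Genes of the mitochondrial genome took 60.7% and 67.5% of counts in Controls 1 and 2 and 32.2% in YAP5SA 3, against 3.80% to 23.2% in the other 11 libraries. The 8 cardiomyocyte markers searched were present in every group, none at 0, with a summed level of 33770 to 37799 CPM in YAP5SA_MEF2A, 24383 to 35867 in YAP5SA, 74972 to 75836 in MEF2A and 45543 to 77441 in Control. The 6 macrophage markers summed to 71.3 to 72.6 CPM in YAP5SA_MEF2A, 68.5 to 606 in YAP5SA, 47.9 to 73.7 in MEF2A and 41.0 to 140 in Control, and the 6 fibroblast markers to 649 to 678, 734 to 1606, 536 to 826 and 502 to 906 CPM in the same groups. By Xist against Y-linked transcripts, both YAP5SA_MEF2A libraries, 0 of 3 YAP5SA, 3 of 4 MEF2A and 2 of 5 Control libraries looked female. Sex and added MEF2A thus cannot be told apart between YAP5SA_MEF2A and YAP5SA. The part of marker levels, sex and mitochondrial share in the results below was not tested, beyond fits with the mitochondrial share as a term and without the 3 libraries rich in it. In bulk nuclei, fewer cardiomyocyte nuclei and less RNA per nucleus cannot be told apart.

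Of the 44 genes, 41 were tested: all 8 of complex III, 16 of complex IV and 17 of complex V. Those that failed the filter on low counts were Cox7b2, a testis isoform with 27 counts in all, Cox8c, another testis isoform with 0, and a second gene ID that carries the symbol Atp5o, with 0. Levels per kilobase of exon allow genes to be compared. Among the 44, the highest means over 14 libraries in complex III were those of Uqcr11 (88.4 CPM per kilobase), Uqcrh (73.1) and Uqcr10 (72.1). In complex IV they were Cox4i1 (122), Cox8b (115) and Cox6a2 (87.1), and in complex V Atp5a1 (198), Atp5b (183) and Atp5h (142). The lowest level of the tested genes was that of Cox4i2, the lung and hypoxia isoform of subunit 4, at 1.98 CPM. The libraries do not mark strand, and 12 of the 44 genes overlap exons of a gene on the opposite strand, so their counts are uncertain. Uqcrc2 (with Pdzd9), Atp5a1 (with Haus1), Cox4i1 (with Emc8) and Cox6a2 (with Itgad) are among them.

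The YAP5SA and Control groups were compared for the effect of active YAP on the heart of young mice. In YAP5SA hearts 2 of 8 complex III genes, 0 of 16 complex IV genes and 4 of 17 complex V genes fell, and 0 rose (edgeR's quasi-likelihood test, Benjamini-Hochberg adjusted p under 0.05 over 17987 genes). These were the core proteins Uqcrc1 and Uqcrc2 of complex III, the catalytic beta subunit Atp5b, the rotor stalk subunit Atp5c1, the peripheral stalk subunit Atp5h, and Atp5s, coupling factor B. The share was 6 of 41, where 4.17% of all tested genes were called lower, 5.69% higher and 9.86% either way. At an unadjusted p under 0.05, 11 of the 41 were lower and 1 higher, where 25.4% of all tested genes were under it. In complex IV, 2 genes were lower at an unadjusted p under 0.05, and DESeq2 called 0 of them. DESeq2 called the same 6 genes in complexes III and V, but it called more of all tested genes than edgeR. The median log2 fold change was -0.28 in complex III, -0.31 in complex IV and -0.44 in complex V, against 0.06 over all tested genes. When libraries were scaled by their totals alone, the median over the 41 genes turned to 0.25, where that of all tested genes was 0.69, and 0 of the 41 were called. Within batch 1 (YAP5SA 1 and 2, Controls 1 and 2) the 6 called genes had log2 fold changes of -1.04 to -0.59, the median over the 41 was -1.02 and 24 of 41 were called, all lower, where 9.33% of all tested genes were called. Within batch 2 (YAP5SA 3, Controls 3 to 5) the 6 had -1.70 to -0.38, but the median over the 41 was 0.43 and 4 were called, 2 higher and 2 lower, where 12.4% of all tested genes were called. The 6 genes were lower in both batches, while the median over the 41 was lower in the first and higher in the second. Each of the 6 lay below every Control in every YAP5SA library, so their direction within a batch was largely set by the choice. Batch 2 held only 1 YAP5SA library.

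Atp5h had 143 and 131 CPM in the YAP5SA_MEF2A libraries, 113, 145 and 144 in YAP5SA, 221, 218, 245 and 314 in MEF2A, and 256, 253, 250, 250 and 228 in Control. The 5 libraries with YAP5SA lay between 113 and 145 CPM and the 9 without it between 218 and 314, with no overlap. Its log2 fold change in YAP5SA against Control was -0.85 ± 0.17 (SE, edgeR adjusted p = 0.00453) and against MEF2A -0.87 ± 0.18 (adjusted p = 0.0037). Both calls held when any 1 library was left out (adjusted p = 0.00177 to 0.0336 and 0.00148 to 0.026). In YAP5SA_MEF2A the values were -0.78 ± 0.21 against Control (adjusted p = 0.0736) and -0.79 ± 0.21 against MEF2A (adjusted p = 0.059), which missed the threshold. Without Controls 1 and 2 and YAP5SA 3 the difference from Control was -0.55 (adjusted p = 0.462) and that from MEF2A -0.75, still called.

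Uqcrc1 had 166 and 147 CPM in YAP5SA_MEF2A, 132, 155 and 181 in YAP5SA, 270, 230, 259 and 341 in MEF2A, and 310, 263, 295, 213 and 250 in Control. Every library with YAP5SA was below 213 CPM, the lowest of the others. It was lower in YAP5SA than in Control by -0.75 ± 0.19 (log2, SE, edgeR adjusted p = 0.0167) and than in MEF2A by -0.80 ± 0.19 (adjusted p = 0.0108). The first call was lost without Control 1 (-0.65, adjusted p = 0.0538) or YAP5SA 1 (-0.66, 0.0931), and the second without YAP5SA 1 (-0.71, 0.0608). In YAP5SA_MEF2A the change was -0.72 against Control (adjusted p = 0.136) and -0.77 against MEF2A (0.104).

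Uqcrc2 had 37.2 and 40.4 CPM in YAP5SA_MEF2A, 34.7, 41.2 and 28.2 in YAP5SA, 48.6, 47.3, 55.4 and 53.2 in MEF2A, and 65.0, 49.8, 62.1, 65.1 and 63.8 in Control. The libraries without YAP5SA were all at or above 47.3 CPM. The gene fell by 0.81 ± 0.19 in YAP5SA against Control (log2, SE, edgeR adjusted p = 0.0112), a call that was lost without YAP5SA 3 (-0.59, adjusted p = 0.131). In YAP5SA_MEF2A against Control it changed by -0.64 (adjusted p = 0.184). The other 6 complex III genes, which include the Rieske iron-sulfur protein Uqcrfs1 and the hinge protein Uqcrh, did not pass in any comparison. Their log2 fold changes in YAP5SA against Control ran from -0.42 in Uqcrq to 0.02 in Uqcrfs1.

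Atp5b had 595 and 584 CPM in YAP5SA_MEF2A, 487, 576 and 693 in YAP5SA, 823, 771, 832 and 1049 in MEF2A, and 897, 849, 933, 873 and 897 in Control. The highest library with YAP5SA was below the lowest without it. It was lower in YAP5SA than in Control by -0.56 ± 0.17 (log2, SE, edgeR adjusted p = 0.0389), but the call held only without Control 3, Control 5, MEF2A 4 or YAP5SA 2 and was lost without each of the other 10 libraries (adjusted p = 0.052 to 0.166). Against MEF2A it was -0.54 ± 0.17 (adjusted p = 0.0405), held without Control 1, 2 or 3, MEF2A 3 or YAP5SA 2 and lost without each of the other 9 (adjusted p = 0.0513 to 0.159). With library totals the difference from Control turned to 0.09, below the 0.69 of all genes.

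Atp5c1 had 97.0 and 94.7 CPM in YAP5SA_MEF2A, 101, 90.7 and 102 in YAP5SA, 129, 122, 122 and 146 in MEF2A, and 151, 129, 193, 136 and 139 in Control. The 5 libraries with YAP5SA fell within 90.7 to 102 CPM, under all 9 others. Its change in YAP5SA against Control was -0.57 ± 0.17 (log2, SE, edgeR adjusted p = 0.0406), lost without Control 1, any of MEF2A 1 to 3, any YAP5SA library or either YAP5SA_MEF2A library (adjusted p = 0.0543 to 0.155), and turned to 0.08 with library totals. Atp5a1, the alpha subunit, had 417 and 449 CPM in YAP5SA_MEF2A, 514, 375 and 542 in YAP5SA, 602, 645, 877 and 934 in MEF2A, and 650, 639, 776, 675 and 613 in Control. It passed only against MEF2A (-0.62 ± 0.18, SE, edgeR adjusted p = 0.0311), lost without MEF2A 3 or 4, YAP5SA 2 or 3 or either YAP5SA_MEF2A library (adjusted p = 0.0556 to 0.109). Against Control it was -0.42 ± 0.18 (adjusted p = 0.142).

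Atp5s had 27.7 and 30.7 CPM in YAP5SA_MEF2A, 15.996, 27.6 and 14.6 in YAP5SA, 56.6, 45.1, 40.5 and 47.7 in MEF2A, and 46.6, 30.8, 57.0, 40.7 and 44.2 in Control. The groups with and without YAP5SA were parted only narrowly, by YAP5SA_MEF2A 2 and Control 2. In YAP5SA it fell by 1.21 ± 0.26 against Control (log2, SE, edgeR adjusted p = 0.0066) and by 1.31 ± 0.26 against MEF2A (adjusted p = 0.00315). The first call was lost without YAP5SA 3 (-0.97, adjusted p = 0.0874). The remaining complex V genes, among them the c-ring genes Atp5g1, Atp5g2 and Atp5g3 and the central stalk subunits Atp5d and Atp5e, did not pass in any comparison. Atp5g2 had the highest estimate in complex V in YAP5SA against Control (0.56 ± 0.24, SE, edgeR adjusted p = 0.157).

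**Figure D1:**
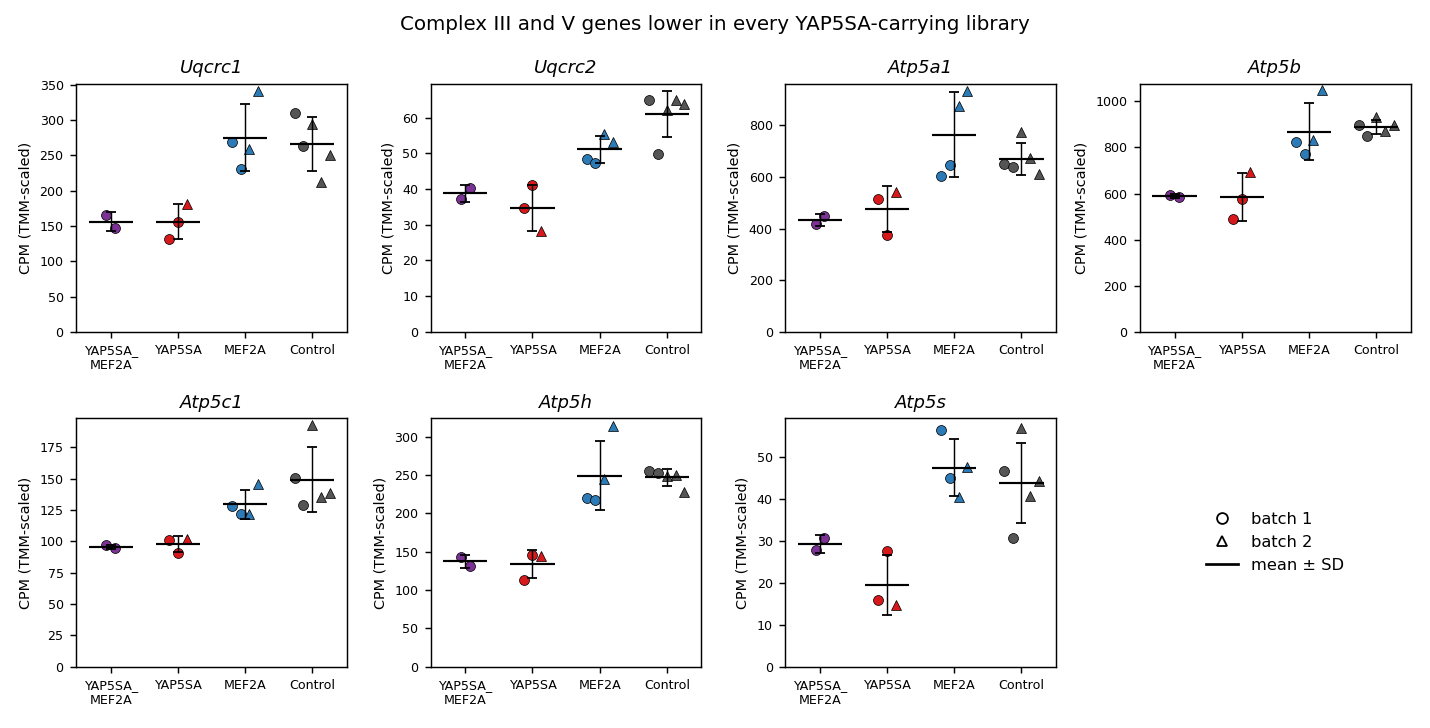
Level of 7 complex III and V genes in each library, in TMM-scaled CPM on axes that start at 0, for the YAP5SA_MEF2A (2), YAP5SA (3), MEF2A (4) and Control (5) groups. Circles are batch 1, triangles batch 2, and bars give the mean ± SD. In each panel the 5 libraries with YAP5SA lie below the 9 without it, by the least in Atp5s (30.7 CPM in YAP5SA_MEF2A 2 against 30.8 in Control 2).

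Taking all 5 libraries with YAP5SA against all 9 without it, 7 of the 41 genes did not overlap and were lower: Uqcrc1, Uqcrc2, Atp5a1, Atp5b, Atp5c1, Atp5h and Atp5s. That is 2 of 8 in complex III, 0 of 16 in complex IV and 5 of 17 in complex V, where 2.92% of all tested genes were lower without overlap. No gene (0 of 41) was higher without overlap, where 5.11% of all tested genes were. The 7 were picked by these values, so the count is a description. Against Control alone, 7 of 41 genes lay below every Control library in YAP5SA (5.13% of all tested genes did) and 0 above (8.51%). YAP5SA against MEF2A asks how the factors differ. Of the 41 genes, 1 of complex III (Uqcrc1) and 4 of complex V (Atp5a1, Atp5b, Atp5h and Atp5s) fell there. In complex IV 1 (Cox7a2) rose. These 6 of 41 were near the share of all tested genes called, 14.9%. At an unadjusted p under 0.05, 7 of the 41 were lower and 1 higher, where 29.4% of all tested genes were under it. DESeq2 called the same 6 and Uqcrc2, where it called 21.6% of all tested genes. With the mitochondrial share as a term 14 of the 41 were called, 8 higher and 6 lower, where 21.5% of all tested genes were called. In the main edgeR fit, 7.77% of all tested genes were called higher and 7.12% lower. The median over the 41 genes was -0.15, and 0.25 with library totals, where that of all tested genes was 0.51. In the main fit the median was 0.29 in complex III, -0.12 in complex IV and -0.23 in complex V. Estimates were higher in 6 of 8, 6 of 16 and 5 of 17 genes of these complexes. Over all tested genes the median of that fit was 0.08. The comparisons with Control and with MEF2A share the YAP5SA libraries.

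In YAP5SA_MEF2A against Control, 0 of 41 genes passed in edgeR, where it called 1.36% of all tested genes, 1.16% higher and 0.195% lower. At an unadjusted p under 0.05, 10 of the 41 were lower, where 13.6% of all tested genes were under it. DESeq2 called 3 lower, Uqcrc1, Uqcrc2 and Atp5h, where it called 4.39% of all tested genes. A fit of the compared groups alone called 11 lower (6.54% of all tested genes) and batch 1 alone called 12 lower (8.58%). The median over the 41 genes was -0.42, against 0.01 over all tested genes, and turned to 0.48 with library totals (0.84 over all tested genes). In YAP5SA_MEF2A against MEF2A 0 passed in edgeR, where 2.32% of all tested genes were called, 1.61% higher and 0.706% lower. At an unadjusted p under 0.05, 5 of the 41 were lower, where 15.4% of all tested genes were under it, and DESeq2 called 2, where it called 5.24% of all tested genes. A fit of the compared groups alone called 7 (15.8% of all tested genes), 5 lower and 2 higher, and one with the mitochondrial share as a term called 4, all higher (4.61%). In YAP5SA_MEF2A, 19 of the 41 genes lay below every Control library (8.43% of all tested genes did) and 14 below every MEF2A library (18.3%). In YAP5SA_MEF2A against YAP5SA, which asks what MEF2A with its virus adds, 0 of 41 passed in edgeR, as did 0% of all tested genes. At an unadjusted p under 0.05 there were 0 of the 41 (2.87% of all tested genes), and DESeq2 called 0. Atp5s was higher without overlap in YAP5SA_MEF2A (1 of 41 genes, 11.2% of all tested genes) and 0 genes were lower (8.79%). The interaction of the viruses gave 0 on the same 3 counts, with 2.45% of all tested genes at an unadjusted p under 0.05 and 0% called. The interaction was 0.06 ± 0.26 in Atp5h and -0.01 ± 0.29 in Uqcrc1 (log2, SE).

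MEF2A against Control, which asks what MEF2A alone changes, gave 0 of 41 genes in edgeR and 0 in DESeq2, where edgeR called 0.0167% of all tested genes. At an unadjusted p under 0.05, 2 of the 41 were lower, where 7.27% of all tested genes were under it. In batch 1 alone 8 were called lower, where 2.96% of all tested genes were called. Medians were -0.44 in complex III, -0.22 in complex IV and -0.19 in complex V, against 0.02 over all tested genes. With 4 and 5 libraries, 0 of 41 genes lay wholly above or below (0.945% of all tested genes lay below and 1.88% above). Estimates for the 7 genes lower with YAP5SA ran from -0.26 in Uqcrc2 to 0.20 in Atp5a1. Atp5h changed by 0.02 ± 0.15 (SE) and Atp5b by -0.02 ± 0.15. Cox7a2 had the lowest estimate, -0.97 ± 0.34 (edgeR adjusted p = 0.607). Without Controls 1 and 2 the median over the 41 genes was 0.11, and without them and YAP5SA 3 it was -0.08.

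Complex IV was described by its isoform pairs, since the ratio of isoforms within a library does not depend on scaling. Cox7a1, the heart and skeletal muscle form of subunit 7a, was read 227 to 799 times per library, and Cox7a2, the ubiquitous form, 396 to 2726 times. Their ratio of counts was 0.369 and 0.296 in YAP5SA_MEF2A, 0.186, 0.277 and 0.293 in YAP5SA, 0.683, 0.886, 0.893 and 0.785 in MEF2A, and 0.363, 0.511, 0.402, 0.541 and 0.479 in Control. All 4 MEF2A libraries were above every Control, and all 3 YAP5SA libraries below. YAP5SA_MEF2A 2 was also below every Control, and YAP5SA_MEF2A 1 was just above the lowest. Group means were 0.332 ± 0.0519 (SD, n = 2), 0.252 ± 0.0579 (n = 3), 0.812 ± 0.0991 (n = 4) and 0.459 ± 0.0744 (n = 5) in the same order.

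The log2 ratio of Cox7a1 to Cox7a2 was lower by -1.06 in the 5 libraries with YAP5SA than in the 9 without, a ratio 0.479 times as high (exact two-sided permutation within batches, 420 arrangements, p = 0.00476, adjusted over 6 tests p = 0.0143). It was higher by 0.82 in the 6 libraries with MEF2A than in the 8 without, 1.76 times as high (exact permutation, 1050 arrangements, p = 0.0219, adjusted p = 0.0438). These differences were estimated within batches, so they are not the plain differences of the means. The plain mean log2 ratios were -1.85 with YAP5SA and -0.77 without, and -0.74 with MEF2A and -1.47 without. Arrangements were also drawn within batches. Both steps took no account of the other virus. Batch 2 held no library with both viruses, so each difference there takes in part of the other virus. YAP5SA 3 (log2 ratio -1.77) counted as without MEF2A, and MEF2A 3 and 4 (-0.16 and -0.35) as without YAP5SA. The same holds for the isoform pairs below. The YAP5SA result was lost without YAP5SA 1 (-0.93, adjusted p = 0.0571). Without YAP5SA 3, the only library with YAP5SA in batch 2, the difference was -1.08 (adjusted p = 0.114), but only 70 arrangements remained, with 0.0286 as the smallest p before adjustment. The MEF2A result was lost without Control 1, 3 or 5, any MEF2A library or any YAP5SA library (0.68 to 0.87, adjusted p = 0.0533 to 0.109), and held without Control 2 or 4 or either YAP5SA_MEF2A library. Without Controls 1 and 2 both held, at -1.32 and 1.08 (adjusted p = 0.0267 each). In batch 1 alone, also with 70 arrangements, they were -1.08 and 0.70, not called, and batch 2 held 1 YAP5SA library.

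In edgeR's test the ubiquitous Cox7a2 rose in YAP5SA against MEF2A (1.29 ± 0.37, log2, SE, adjusted p = 0.0328). It had 46.3 and 39.8 CPM in YAP5SA_MEF2A, 47.8, 36.7 and 137 in YAP5SA, 22.6, 24.7, 32.2 and 40.8 in MEF2A, and 74.2, 72.5, 39.8, 40.2 and 61.0 in Control. YAP5SA 3 stood well above all other libraries, and the groups overlapped. Without YAP5SA 3 the change was 0.44 (adjusted p = 0.515), and the call also ended without YAP5SA 1, any MEF2A library or either YAP5SA_MEF2A library (adjusted p = 0.0511 to 0.0922). Cox7a1 had 17.1 and 11.8 CPM in YAP5SA_MEF2A, 8.88, 10.2 and 40.0 in YAP5SA, 15.5, 21.9, 28.7 and 32.0 in MEF2A, and 27.0, 37.0, 15.99, 21.7 and 29.2 in Control. Its change in YAP5SA against Control was -0.49 ± 0.42 (adjusted p = 0.512), with both isoforms high in YAP5SA 3.

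The ratio of Cox8b, the muscle form of subunit 8, to Cox8a, the ubiquitous form, was 0.757 and 0.739 in YAP5SA_MEF2A, 0.385, 0.811 and 0.491 in YAP5SA, 0.844, 1.13, 1.61 and 1.45 in MEF2A, and 1.29, 1.59, 1.34, 0.797 and 0.979 in Control. The libraries with YAP5SA were lower except that YAP5SA 2 was just above Control 4. The log2 ratio was lower by -0.99 with YAP5SA than without, 0.502 times as high (exact permutation, p = 0.00238, the smallest that 420 arrangements allow, adjusted p = 0.0143). Without YAP5SA 3 it was -0.87, with the smallest p that the remaining 70 arrangements allow (exact permutation, p = 0.0286, adjusted p = 0.0986), and the call was kept without Controls 1 and 2 (-0.86, 0.0267). With MEF2A it differed by 0.30 (adjusted p = 0.497).

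The ratio of Cox6a2, the heart form of subunit 6a, to Cox6a1, the liver and ubiquitous form, averaged 1.44 ± 0.068 (SD, n = 2) in YAP5SA_MEF2A, 1.38 ± 0.28 (n = 3) in YAP5SA, 1.83 ± 0.581 (n = 4) in MEF2A and 2.31 ± 0.97 (n = 5) in Control. Within batches, the log2 ratio differed by -0.34 with YAP5SA (exact permutation, adjusted p = 0.161) and by -0.04 with MEF2A (adjusted p = 0.875). Neither was beyond the spread between libraries. The plain mean log2 ratios were 0.48 with YAP5SA and 0.99 without. As single genes, Cox6a2 changed by -0.58 ± 0.31 in YAP5SA against Control (SE, edgeR adjusted p = 0.249), Cox8b by -0.75 ± 0.41 (0.284), Cox8a by 0.43 ± 0.36 (0.4996) and Cox6a1 by -0.09 ± 0.33 (0.911). Cox4i1, the main form of subunit 4, changed by -0.39 ± 0.24 (0.318) and Cox4i2 by -0.39 ± 0.72 (0.793). Cox6b1, the general form of subunit 6b, changed by -0.17 ± 0.31 (0.786), and Cox6b2, the testis form, by 0.70 ± 0.50 (0.413), with a mean of 4.08 CPM over all 14 libraries. Cox7a2l, which joins complexes III and IV into supercomplexes, changed by -0.48 ± 0.23 (0.193).

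**Figure D2:**
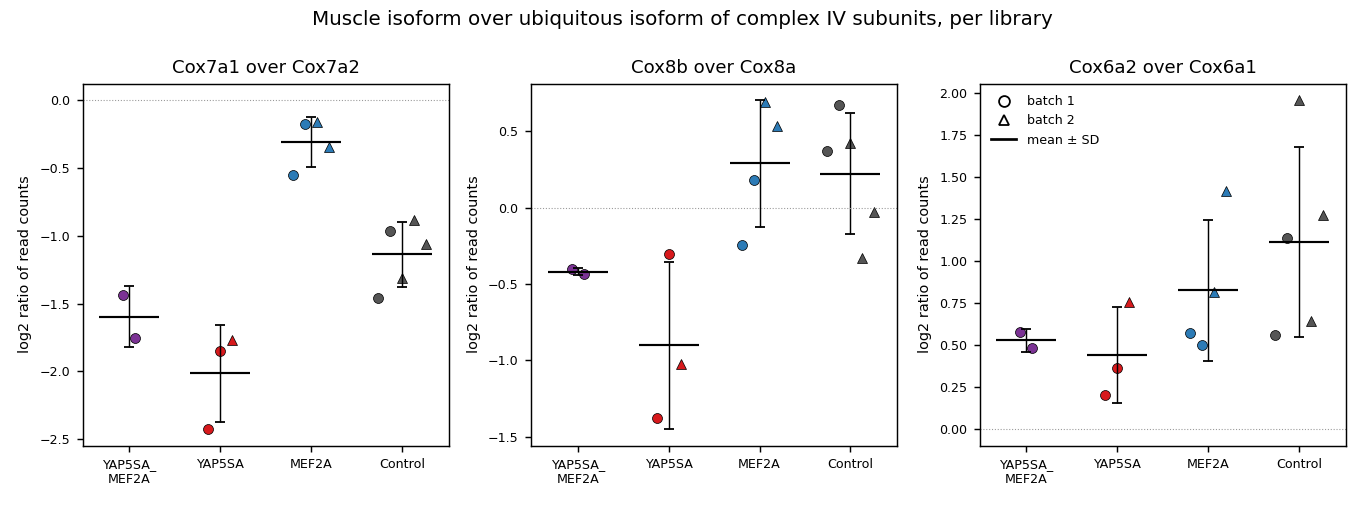
Log2 ratio of counts of the muscle isoform over the ubiquitous isoform for 3 complex IV subunits, 1 point per library, in the YAP5SA_MEF2A, YAP5SA, MEF2A and Control groups. Circles are batch 1, triangles batch 2, and bars the mean ± SD of the log2 ratios. For Cox7a1 over Cox7a2 all MEF2A libraries lie above, and all YAP5SA libraries below, the 5 Controls.

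The genes did not vary alike among the libraries of 1 group. YAP5SA 3 was higher than the mean of YAP5SA 1 and 2 in 39 of 41 genes, by a median of 1.05 on the scale of log2(CPM + 0.5), where the median over all tested genes was -0.06. By complex the median difference was 1.35 in complex III, 1.08 in complex IV and 0.76 in complex V. The 34 genes outside the 7 listed above were all higher in YAP5SA 3 (0.15 to 2.02, median fold 2.23), while the 7 ranged from -0.51 to 0.39 (median fold 1.12). Because the 7 were chosen for low values in every library with YAP5SA, a small difference there is partly set by the choice. Summed over complex III, YAP5SA 1 to 3 had 366, 378 and 799 CPM. For complex IV the sums were 655, 635 and 1452, and for complex V 1873, 1803 and 2775.

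The libraries that stood high were those rich in mitochondrial transcripts. YAP5SA 3 also had the highest macrophage and fibroblast marker sums of its group, 606 and 1606 CPM. Csf1r, for 1, had 234 CPM there, against 64.6 and 25.8 in YAP5SA 1 and 2. The part of these markers in its levels was not tested. Controls 1 and 2, with 60.7% and 67.5% of counts on mitochondrial genes, were higher than Controls 3 to 5 in 31 of 41 genes, by a median of 0.37 (log2), against -0.09 over all tested genes. Complex IV summed to 1216 and 1235 CPM in Controls 1 and 2 and to 829.3, 1006 and 1117 in Controls 3 to 5. With the log2 mitochondrial share as a term, YAP5SA against Control still called the same 6 genes lower, and Cox7a2 higher, and the median over the 41 genes was -0.08. Without Controls 1 and 2 it called Uqcrc2, Atp5h and Atp5s lower and Cox7a2 higher, with a median over the 41 genes of 0.13 and 15 of 41 estimates below 0. Uqcrc1 (-0.51, adjusted p = 0.131), Atp5b (-0.44, 0.169) and Atp5c1 (-0.61, 0.0681) were then not called. Without YAP5SA 3 it called 8 lower (Uqcrc1, Uqcrq, Cox4i1, Cox7a1, Atp5f1, Atp5g1, Atp5h and Atp5j), with a median of -0.85. Without all 3 libraries 0 were called, the median was -0.34 with 37 estimates below 0, and the 6 genes ran from -0.52 in Atp5b to -1.32 in Atp5s (adjusted p = 0.180 to 0.537). Of all tested genes these fits called 15.8% with the mitochondrial share, 11.5% without Controls 1 and 2, 3.08% without YAP5SA 3 and 0.428% without all 3. The sign of the median over the 41 genes in YAP5SA against Control thus depended on which of these libraries were kept, both Controls 1 and 2 and YAP5SA 3. In YAP5SA_MEF2A against Control the median was 0.33 without Controls 1 and 2 and -0.08 without all 3 libraries.

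**Figure D3:**
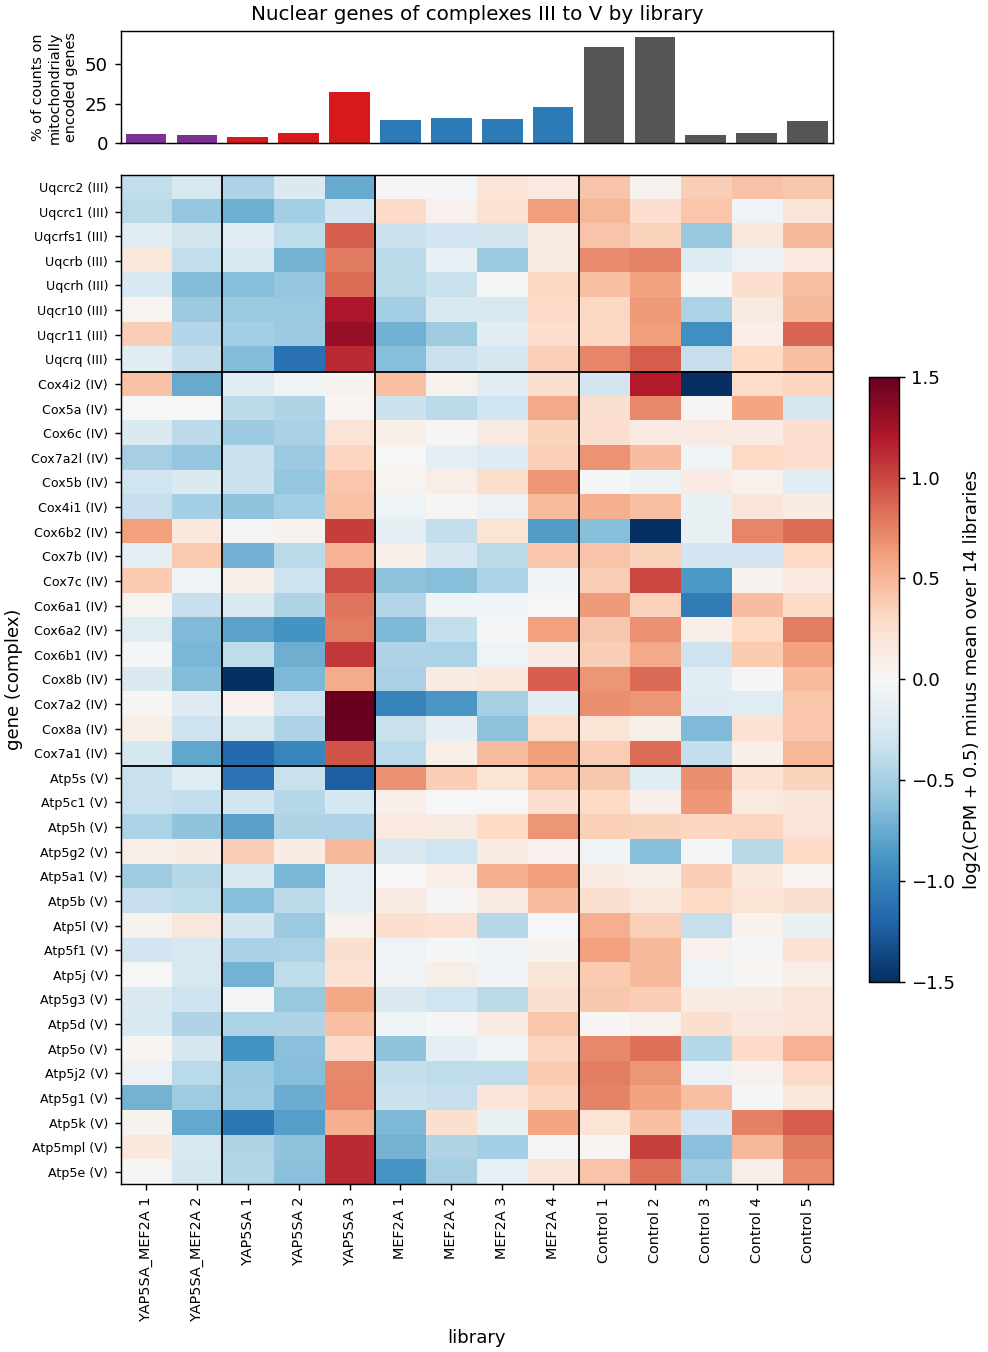
Levels of the 41 tested genes in the 14 libraries as log2(CPM + 0.5) minus the gene's mean over all libraries, with colours ending at -1.5 and 1.5. Genes are grouped by complex and ordered by the difference between YAP5SA 3 and the other YAP5SA libraries, and bars on top give the percentage of counts on mitochondrially encoded genes. YAP5SA 3 (32.2%) and Controls 1 and 2 (60.7% and 67.5%) are red over most rows, but YAP5SA 3 is blue or pale in the 7 genes lower with YAP5SA.

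Within-group spread also followed gene size. Across the 41 genes, Spearman's rho between gene span and the difference of YAP5SA 3 from YAP5SA 1 and 2 was -0.68, that between exon length and this difference -0.60, and that between exon length and the within-group SD -0.72. Between mean CPM and the difference of YAP5SA 3 it was -0.17. The genes share the same libraries, so these are descriptions. The 7 genes had a median span of 12991 bases and exon length of 2552 bases, against 5329 and 1300 in the other 34. Their median within-group SD of log2 levels was 0.17, against 0.48, and their median level over all libraries was also higher, 208 CPM against 51.4. The 7 were picked for lack of overlap, which a small spread favours. Their lower SD, and traits that go with it such as length, are thus partly set by the choice.

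**Figure D4:**
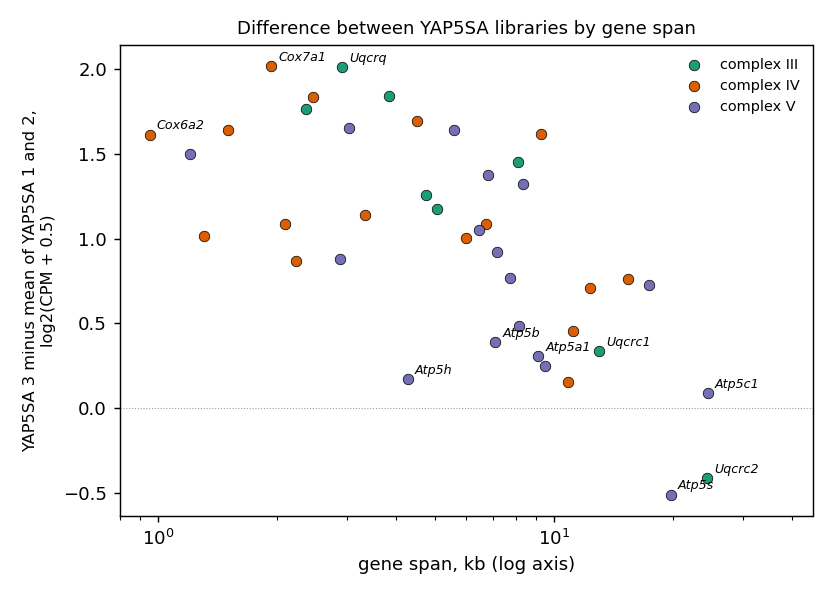
Difference of YAP5SA 3 from the mean of YAP5SA 1 and 2, in log2(CPM + 0.5), against the length of the gene in the genome on a log axis, 1 point per tested gene, coloured by complex. Short genes such as Cox7a1 and Uqcrq lie near 2.02, and the longest, Atp5c1, Uqcrc2 and Atp5s, lie at 0.09 or lower.

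Other genes of the pathway were taken from lists. In YAP5SA against Control, 9.86% of all tested genes were called in edgeR and 25.4% were at an unadjusted p under 0.05. In YAP5SA against MEF2A these shares were 14.9% and 29.4%. DESeq2 called more of all tested genes than edgeR in both. Of complex II and cytochrome c genes (6 tested), 0 passed in YAP5SA against Control (edgeR, 3 lower at an unadjusted p under 0.05, and 2 called by DESeq2), and in YAP5SA against MEF2A 2 fell, Sdhb, the iron-sulfur subunit of complex II (-0.81 ± 0.21, SE, edgeR adjusted p = 0.0165), and Cyc1, cytochrome c1 of complex III (-0.69 ± 0.22, 0.0451). Of 6 complex III assembly genes, 0 passed against Control (4 lower at an unadjusted p under 0.05, and 2 called by DESeq2) and 3 fell against MEF2A, Uqcc1, Lyrm7 and Ttc19. Ttc19 had 73.5 and 77.7 CPM in YAP5SA_MEF2A, 75.8, 81.3 and 62.6 in YAP5SA, 132, 139, 137 and 140 in MEF2A, and 97.4, 89.1, 143, 98.7 and 99.5 in Control. All 5 libraries with YAP5SA lay below all the others, as they did for 2.92% of all tested genes. Against MEF2A, Ttc19 changed by -0.89 ± 0.19 (SE, edgeR adjusted p = 0.00502). Of 23 complex IV assembly genes 20 were tested. Cox10, a heme A synthesis enzyme, fell against Control (-0.77 ± 0.21, adjusted p = 0.0306) and MEF2A (-0.81 ± 0.22, 0.0211). Sco1, a copper chaperone, rose against MEF2A (1.57 ± 0.43, 0.02) and missed the threshold against Control (1.26 ± 0.42, 0.067). Of 4 complex V assembly genes, 0 passed in edgeR in either, with 1 lower at an unadjusted p under 0.05 in each and 1 called by DESeq2 against MEF2A.

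The 6 mitochondrially encoded subunits of complexes III to V gave 0 calls in both comparisons in edgeR and in DESeq2, and 0 at an unadjusted p under 0.05, with medians of -1.66 against Control and -0.71 against MEF2A. Their summed level was 24709 to 27830 CPM in YAP5SA_MEF2A, 17081 to 175187 in YAP5SA, 85859 to 154229 in MEF2A and 28752 to 867213 in Control. Of 15 nuclear regulators of respiratory genes, 3 fell in YAP5SA against Control, where 4.17% of all tested genes were called lower and 9.86% either way: Esrra and Esrrg, oestrogen-related receptors that activate respiratory genes, and Gabpa, an ETS factor (-1.19 ± 0.24, -1.12 ± 0.34 and -0.71 ± 0.21, SE, edgeR adjusted p = 0.0048, 0.0475 and 0.0401). Gabpa shares exon bases with Atp5j on the other strand, so its counts are uncertain. Esrra had 235 and 225 CPM in YAP5SA_MEF2A, 136, 274 and 126 in YAP5SA, 481, 475, 342 and 429 in MEF2A, and 359, 349, 451, 373 and 411 in Control. All 5 libraries with YAP5SA were below all 9 without it, as they were for 2.92% of all tested genes. Against MEF2A these 3, Ppargc1b and Mef2a fell and Pprc1 rose, 6 of 15, where 14.9% of all tested genes were called. Whether reads of the human MEF2A transgene were counted on mouse Mef2a was not tested. In MEF2A against Control, mouse Mef2a changed by 0.07 ± 0.17 (SE, edgeR adjusted p = 0.958). In YAP5SA_MEF2A against Control or MEF2A, 0 genes of these lists passed in edgeR (1.36% and 2.32% of all tested genes did). Of the regulators, 2 and 3 were lower at an unadjusted p under 0.05, where 13.6% and 15.4% of all tested genes were under it. DESeq2 called 1 regulator in each, and more of all tested genes than edgeR in both.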

How the data were processed

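Nuclear polyA RNA was sequenced from 14 mouse heart libraries with a kit that does not mark strand, per the labels' protocols. The authors deposited whole-number read counts per gene. The submitters' processing notes name STAR, edgeR, limma and GRCm38; their settings and the counting step are not given in the sources used here. The counts were used as deposited, with GENCODE vM21 for symbols, gene types and lengths.

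Genes were kept by filterByExpr (minimum count 10, total 15), which left 17987 of 54446. Libraries were scaled by TMM, and all 14 were fitted together with group and batch as terms in edgeR 4.0.16 (R 4.3.3), with robust quasi-likelihood F-tests, two-sided, and Benjamini-Hochberg adjustment over all genes tested (threshold 0.05). Isoform ratios were tested as log2 ratios of counts plus 0.5 by exact permutation of libraries within batches, over 420 (YAP5SA) or 1050 (MEF2A) arrangements, adjusted over 6 tests. DESeq2 1.42.0 was an alternative, with other scalings, filters, covariates and library subsets. The fit was tested on simulated data.

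Libraries held 16171068 to 24027622 counts, and no 2 were identical. The biological coefficient of variation was 0.503. No sign was seen that replicate numbers pair libraries, though groups this small cannot settle it. The genes, gene lists and tests were chosen with earlier results of these data known. Text names every member called by the main test, the 3 genes per complex with the highest CPM per kilobase, the isoform genes of complex IV and members that failed the filter, and other genes only from the lists. Genes named outside it, such as those called only under an alternative, were chosen after their values were seen. Promoter windows of 250 upstream bases came from RefSeq, GRCm38.p6, and 14 of the 44 genes had none. They were read for motifs with Python 3.11.15.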

Additional observations from a re-analysis of the deposited data

Results flagged for a closer look

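In 56 groups of 4 or 5 libraries searched for a library far from the rest, 4 were found, where chance gives about 1 in 20. Uqcrc2 was at 49.8 CPM in Control 2, with the other Controls at 62.1 to 65.1. Atp5h was at 228 CPM in Control 5, with the other Controls at 249.5 to 256. Cox4i1 was at 256 CPM in MEF2A 4, with the other MEF2A libraries at 173 to 185. Complex IV summed to 1199 CPM in MEF2A 4, with the others at 814 to 874, and that library also had the largest mitochondrial share of its group, 23.2% of counts against 14.8% to 16.3%. The part of that share was not tested.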

How the results depend on the processing

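Counts of the 41 genes called moved by over 1.5 times as follows. In YAP5SA against Control (6), they were 0 with library totals, 2 with a replicate block, 1 from a fit of the compared groups alone, 24 in batch 1 alone and 0 without Controls 1 and 2 and YAP5SA 3. In YAP5SA against MEF2A (6), they were 1 with library totals, 3 with a replicate block, 14 with the mitochondrial share as a term (8 higher, 6 lower), 2 in batch 1 alone and 2 without those 3 libraries. In MEF2A against Control (0), they were 2 with no filter on low counts and 8 in batch 1 alone. In YAP5SA_MEF2A against Control (0), they were 1 with a stricter filter, 3 by DESeq2, 1 with no batch term, 11 from the compared groups alone and 12 in batch 1 alone. In YAP5SA_MEF2A against MEF2A (0), they were 1 with upper-quartile scaling, 1 with a stricter filter, 2 by DESeq2, 2 with no batch term, 4 with the mitochondrial share, 7 from the compared groups alone and 1 without Controls 1 and 2. In YAP5SA_MEF2A against YAP5SA and in the interaction it was 0 throughout. Over all genes, YAP5SA against Control called 1773, and 75 to 2998 under the alternatives, among them 2881 by DESeq2. The main fit called 9.86%, 14.9%, 0.0167%, 1.36% and 2.32% of all tested genes in these 5 comparisons, in the order above. The alternatives changed the calls over all genes as well. A changed count among the 41 thus cannot be read as particular to them. Without 1 library each, YAP5SA against Control gave 3 to 8, YAP5SA against MEF2A 3 to 7, and YAP5SA_MEF2A against MEF2A 0 to 1. The 3 came without Control 1 or YAP5SA 1 against Control, and without MEF2A 4, YAP5SA 1 or 3 or either YAP5SA_MEF2A library against MEF2A.

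With library totals, Atp5b (0.0885) and Atp5c1 (0.0823) turned direction in YAP5SA against Control; this scaling moved the median of all genes to 0.69. For Cox7a1 over Cox7a2, the log2 difference with YAP5SA was -1.07 under a replicate block, -1.51 without Controls 1 and 2 and YAP5SA 3, and -1.08 in batch 1 (none called), and -1.21 to -0.92 without 1 library each. With MEF2A it was 0.81 under the block, 0.73 with no batches, 1.00 without those 3 libraries and 0.70 in batch 1 (none called), and 0.68 to 0.98 without 1 library each. Cox8b over Cox8a with YAP5SA was -1.05, -0.60 and -0.87 under the block, without the 3 libraries and in batch 1 (none called), and -1.12 to -0.84 without 1 library each; with MEF2A it was -0.0664 in batch 1. Cox6a2 over Cox6a1 with MEF2A (-0.04) turned to 0.10 without Controls 1 and 2, to 0.0490 without those and YAP5SA 3, and ran from -0.121 to 0.0709 without 1 library each. The cause was not tested; batch 1 (70 arrangements), the set without 3 libraries and, with YAP5SA, the set without YAP5SA 3 (70) hold few arrangements, so a call lost there says little about stability.

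Of 16 pairs of libraries with the same number in different groups, 0 had a correlation of deviations over 0.1 (-0.184 to 0.0894). With so few libraries per group, these correlations cannot settle whether the number used as a block pairs libraries.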
